A study of Mus musculus with 7 samples.

Results

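The genes described here are 37 listed fibroblast collagen and matrix genes, of which 36 had at least 1 probe set annotated to that gene alone among the 12393 genes measured. The list holds collagens, elastic fibre and cross-linking proteins, proteoglycans and genes of fibroblast lineage. No probe set was paired with Fbn1, and it was left out. The 36 genes had 65 probe sets, and each gene was read from the probe set with the highest mean signal. The study hybridised total RNA from murine fetal liver to 7 arrays. Liver endothelial progenitors positive for Sca1 (Sca1+) gave 2 arrays, those negative for it (Sca1-) gave 3, progenitors with no Sca1 label gave 1 and a feeder cell layer gave 1. Arrays with a Sca1 label are called sorted here and the progenitor array without one unsorted. Strain, genotype, embryonic age, pooling and the make-up of the feeder layer are not given in the titles. Sca1 is a cell surface protein found on many stem and progenitor populations.

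Fibroblasts and other mesenchymal cells secrete the fibrous part of the extracellular matrix. Collagen chains are folded in the endoplasmic reticulum with the help of a chaperone, trimmed outside the cell, assembled into fibrils with small proteoglycans and then cross-linked by lysyl oxidases. In fetal liver, genes of this kind are used as markers of mesenchymal and stellate-type cells.

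Signals are given after bringing the trimmed mean of every array to 500. Differences are on the log2 scale after raising any signal under 64 to 64, so a difference that involves an array at that floor depends on where the floor is set. Of the 5 sorted arrays, 3 carry a sample number in their titles (Sca1+ replicate 2 and Sca1- replicates 2 and 3, called numbered here) and 2 do not (replicate 1 of each fraction, called unnumbered). The titles do not say what the number stands for. Nor do they name the culture or animal behind each replicate, and p-values therefore measure only how far these samples lie apart, a spread that may be technical. Feeder values were deposited apart from the others, under another platform, and levels set against them were not tested. In RNA from a mixed population, fewer cells of a type and less RNA per cell cannot be told apart.

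The arrays differed in ways that went along with the title number. The 3' to 5' signal ratio of the Actb control, which rises with truncated transcripts, was 6.83 and 13.5 on the unnumbered sorted arrays, 1.87 to 2.37 on the numbered ones, and 1.01 and 1.03 on the unsorted and feeder arrays. The hybridisation control cre read 111744 on Sca1- replicate 1, 45164 to 52925 on the other sorted arrays, and 13550 and 14794 on the unsorted and feeder arrays. Bacterial control probe sets, taken as background, reached 170 on Sca1- replicate 1 and on the unsorted array, and 50.8 to 88.2 on the others. The cut of 100 used here thus lies under the highest control on both of those arrays. Of 8 endothelial markers, 3 to 6 lay above 100 on a sorted or unsorted array. Kdr, Eng and Egfl7 lay above 100 on all 7 arrays, and Tek and Tie1 below 100 on all 7. On Sca1- replicate 1, however, Kdr (141) and Egfl7 (154.5) lay under the highest control. Cdh5, Emcn and Pecam1 lay on either side of 100, with Pecam1 between 15.0 and 206. Of 10 macrophage markers, 8 lay above 100 on every array. The summed signal of 8 granulocyte markers ranged from 8515 on Sca1+ replicate 2 and 4319 on the feeder to 544788 on Sca1- replicate 1. Of 7 hepatoblast markers, 0 and 2 lay above 100 on the unnumbered sorted arrays, 4 or 5 on the numbered ones, 7 unsorted and 5 on the feeder. Of 3 erythroid markers measured, 0 to 2 did on any array. Of 8 stellate and smooth muscle markers, 2 lay above 100 on each unnumbered array and 4 to 6 on the others. Their summed signal was 2738 and 10651 on the unnumbered arrays, 7560 to 15795 on the numbered ones, 10085 unsorted and 25703 on the feeder. Lrat, used as a marker of quiescent stellate cells, stayed below 100 on all 7, while Acta2 and Tagln lay above 100 on all 7. The part of these differences in the results that follow was not tested.

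Signals of the matrix genes split the sorted arrays by title number more clearly than by Sca1. More than 18 of the 36 genes were at or below 100 on each unnumbered sorted array, and most were intermediate on Sca1- replicates 2 and 3, and at the level of the unsorted and feeder arrays on Sca1+ replicate 2. Of the 36 genes, 13 and 17 had a signal above 100 on the unnumbered Sca1+ and Sca1- arrays, 32 on Sca1+ replicate 2, 30 on each of the other numbered arrays, and 34 on both the unsorted and the feeder array. Among the 17, Col6a3, Mfap5 and Prrx1 lay under the highest bacterial control on Sca1- replicate 1. By the probe sets used, not every numbered array lay above every unnumbered one for Fn1, Col12a1, Fap, Thy1, Mfap5, Islr and Twist2. The same held for Mfap4, Ogn and Twist1, which stayed below 100 on every sorted array.

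**Figure D1:**
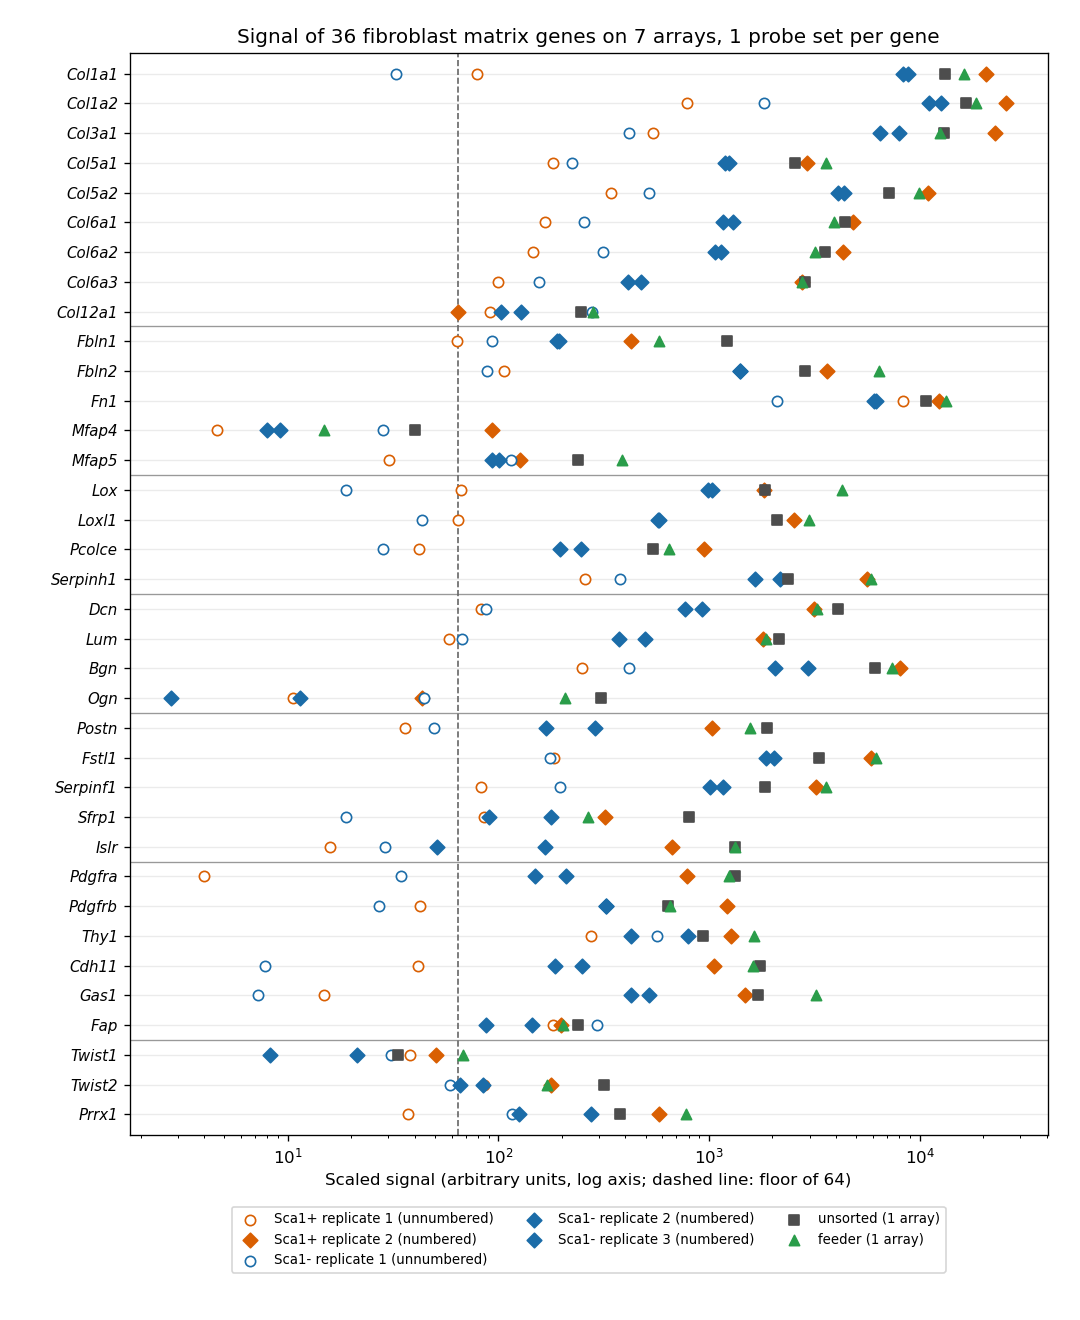
Scaled signal of each of the 36 genes (rows, grouped by role) on the 7 arrays, on a log axis; each point is 1 array, open circles are unnumbered and diamonds numbered sorted arrays (both numbered Sca1- arrays share a symbol), and the dashed line is the floor of 64. For most genes the open circles lie far to the left, while Sca1+ replicate 2 lies beside the unsorted and feeder points; Fn1, Col12a1 and Fap do not show this spread.

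Of 9 collagen genes, 8 were lowest on the unnumbered arrays, and Col12a1 was the exception. Col1a1, which encodes the main chain of type I collagen, had signals of 79.4 and 20565 in Sca1+, 32.6, 8319 and 8775 in Sca1-, 13192 unsorted and 16207 in the feeder. Col1a2, the partner chain, had 784 and 25650.4 in Sca1+, 1822, 12608 and 11055.5 in Sca1-, 16623.5 unsorted and 18511 in the feeder. Both type I chains were thus lowest on the unnumbered arrays and highest on Sca1+ replicate 2. Col3a1, which encodes type III collagen, had 543 and 22807 in Sca1+, 418, 7996 and 6486 in Sca1-, 13060.1 unsorted and 12437 in the feeder. The type V chains, which regulate fibril diameter, were also lowest on the unnumbered arrays. Col5a1 had 181 and 2915 in Sca1+, 223, 1237 and 1191 in Sca1-, 2546.5 unsorted and 3577 in the feeder. Col5a2 had 342 and 10954 in Sca1+, 517.5, 4114.5 and 4364 in Sca1-, 7129.6 unsorted and 9922.5 in the feeder. Type VI collagen forms beaded filaments at the cell surface from chains encoded by Col6a1, Col6a2 and Col6a3. Signals of Col6a1 were 166 and 4818 in Sca1+, 255, 1296 and 1167 in Sca1-, 4443 unsorted and 3938 in the feeder. Those of Col6a2 were 146 and 4309 in Sca1+, 314, 1066 and 1141.5 in Sca1-, 3552 unsorted and 3193.5 in the feeder. For Col6a3 they were 100 and 2772.5 in Sca1+, 156, 414 and 473 in Sca1-, 2845 unsorted and 2758 in the feeder, so that Sca1- replicates 2 and 3 lay further below the feeder for this chain than for the others. Col12a1, which encodes a collagen that decorates fibrils, behaved differently, with 90.8 and 64.2 in Sca1+, 279.6, 103 and 127.5 in Sca1-, 248 unsorted and 282 in the feeder. Its lowest signal was on Sca1+ replicate 2, the array where the other 8 collagens were at or near their highest.

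Bases upstream of the start site are shown for 3 genes of this pattern, Col1a2, Col3a1 and the collagen chaperone gene Serpinh1, and for Ogn, which was at the floor on every sorted array. Sequences are from RefSeq (GRCm38.p6), the 250 bases before the first listed start, 5′ to 3′ on the gene's strand. Capitals mark matches on either strand to 3 common promoter motifs. The first is the letters CCAAT, named after themselves. The second, called a TATA box, was searched as TATAAA. The last, called a GC box, was searched as GGGCGG. In Ogn the TATA box matches on both strands and the matches overlap.
Col1a2, chr6:4505368-4505617, plus strand: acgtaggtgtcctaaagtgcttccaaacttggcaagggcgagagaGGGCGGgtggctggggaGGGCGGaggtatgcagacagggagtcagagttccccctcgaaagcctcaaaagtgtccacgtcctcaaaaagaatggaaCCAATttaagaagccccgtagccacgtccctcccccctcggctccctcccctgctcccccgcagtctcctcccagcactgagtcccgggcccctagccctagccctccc
Col3a1, chr1:45311288-45311537, plus strand: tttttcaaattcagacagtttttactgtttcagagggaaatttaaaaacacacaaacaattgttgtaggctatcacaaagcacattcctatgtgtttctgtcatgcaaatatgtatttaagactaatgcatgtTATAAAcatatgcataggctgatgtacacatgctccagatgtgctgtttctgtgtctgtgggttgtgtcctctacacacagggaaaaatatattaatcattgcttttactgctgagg
Serpinh1, chr7:99353240-99353489, minus strand: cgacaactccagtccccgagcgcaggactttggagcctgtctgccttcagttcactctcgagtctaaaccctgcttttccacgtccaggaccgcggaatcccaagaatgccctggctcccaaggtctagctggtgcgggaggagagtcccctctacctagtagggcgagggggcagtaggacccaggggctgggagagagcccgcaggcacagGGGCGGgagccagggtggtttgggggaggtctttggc
Ogn, chr13:49607765-49608014, plus strand: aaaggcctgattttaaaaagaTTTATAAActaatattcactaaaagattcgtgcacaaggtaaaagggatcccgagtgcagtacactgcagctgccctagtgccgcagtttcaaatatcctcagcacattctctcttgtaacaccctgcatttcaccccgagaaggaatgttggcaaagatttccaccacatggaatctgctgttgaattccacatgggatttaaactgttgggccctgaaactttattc
Of the 36 genes, 21 had an entry. CCAAT was found in 5 of these 21 and in 34.5% of 27025 genes with an entry of this length. The TATA box was found in 3 and in 13.0%, and the GC box in 11 and in 32.9%. Col1a2 holds 1 CCAAT beginning 109 bases before the start and 2 GC boxes beginning 205 and 188 bases before it, Col3a1 has 1 TATA box beginning at 117, and Serpinh1 has 1 GC box beginning at 37. Col1a2 and Serpinh1 thus share the GC box, which Col3a1 lacks in this window. A match is a run of letters and was not tested as a binding site.

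Genes of microfibrils and their partners did not share a single pattern. Fbln2, which encodes a fibulin of elastic fibres and basement membranes, had signals of 106 and 3626 in Sca1+, 88.5, 1400.4 and 1401 in Sca1-, 2865 unsorted and 6393 in the feeder. Fbln1, its relative, had 63.4 and 426 in Sca1+, 92.9, 194 and 189 in Sca1-, 1218 unsorted and 577 in the feeder, and was highest on the unsorted array. Fn1 encodes fibronectin, an adhesive glycoprotein made by many cell types. It had 8364 and 12366 in Sca1+, 2106, 6201 and 6083 in Sca1-, 10759 unsorted and 13397 in the feeder. By this probe set its lowest signal on the 7 arrays was 2106, and Sca1+ replicate 1 lay above both numbered Sca1- arrays. By its other probe set both unnumbered arrays were lowest, with 74.6 in Sca1+ and 116 in Sca1-. Mfap5, a microfibril glycoprotein gene, had 30.4 and 127 in Sca1+, 115, 100.2 and 93.6 in Sca1-, 239.7 unsorted and 384 in the feeder. Mfap4, another, had 4.6 and 93 in Sca1+, 28.4, 8 and 9.2 in Sca1-, 40 unsorted and 14.8 in the feeder and was therefore below 100 throughout.

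Genes for maturing and cross-linking collagen were all lowest on the unnumbered arrays. Lox, which encodes the lysyl oxidase that starts cross-links in collagen and elastin, had signals of 66.6 and 1819.9 in Sca1+, 19, 983 and 1032 in Sca1-, 1852.5 unsorted and 4264 in the feeder. Loxl1, a relative that acts on elastin, had 64.4 and 2524 in Sca1+, 43.4, 575 and 577 in Sca1-, 2096 unsorted and 2979.6 in the feeder. Pcolce, whose product speeds the trimming of procollagen, had 42 and 948 in Sca1+, 28.2, 196.5 and 247.5 in Sca1-, 539.6 unsorted and 644 in the feeder. Lox, Loxl1 and Pcolce were below 100 on both unnumbered arrays. Serpinh1, which encodes the collagen chaperone of the endoplasmic reticulum, had 258.5 and 5595 in Sca1+, 379, 2171 and 1660.5 in Sca1-, 2370.3 unsorted and 5858 in the feeder. On the feeder array Lox stood above every other array, whereas Pcolce was highest on Sca1+ replicate 2.

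Of the 4 small leucine-rich proteoglycan genes, 3 showed the collagen pattern. Dcn, which encodes decorin, had signals of 82.8 and 3156 in Sca1+, 87.3, 922 and 766 in Sca1-, 4087 unsorted and 3238 in the feeder. Lum, for lumican, had 58.4 and 1812 in Sca1+, 67.4, 373 and 495 in Sca1-, 2152 unsorted and 1854 in the feeder. Bgn, for biglycan, had 251 and 8049.9 in Sca1+, 416, 2944 and 2060.1 in Sca1-, 6125 unsorted and 7374 in the feeder. Ogn, for osteoglycin, had 10.6 and 43.6 in Sca1+, 44.4, 2.8 and 11.4 in Sca1-, 306 unsorted and 208 in the feeder. Ogn was thus above the floor only on the unsorted and feeder arrays.

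Secreted matricellular and regulatory proteins were also mostly lowest on the unnumbered arrays. Postn, which encodes the matricellular protein periostin, had signals of 36.2 and 1028 in Sca1+, 49.6, 288.5 and 169 in Sca1-, 1874 unsorted and 1565 in the feeder. Fstl1, for a secreted follistatin-like glycoprotein, had 183 and 5868 in Sca1+, 175, 1871 and 2027.5 in Sca1-, 3331 unsorted and 6201 in the feeder. Serpinf1, for the anti-angiogenic factor PEDF, had 82.6 and 3226 in Sca1+, 196, 1166 and 1015 in Sca1-, 1843 unsorted and 3596 in the feeder. The level of Fstl1 and Serpinf1 on Sca1+ replicate 2 was close to that on the feeder. Sfrp1, for a secreted inhibitor of Wnt ligands, had 85.8 and 322 in Sca1+, 18.8, 178 and 90.2 in Sca1-, 807 unsorted and 265 in the feeder, with the unsorted array highest. Islr, for a leucine-rich immunoglobulin-domain protein, had 15.8 and 670.5 in Sca1+, 29, 51.2 and 167 in Sca1-, 1333 unsorted and 1334 in the feeder. Sca1- replicate 2 was at the floor for Islr although Sca1- replicate 3 was not.

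Surface proteins of mesenchymal cells split between those with the collagen pattern and those without it. Pdgfra and Pdgfrb encode receptors for platelet-derived growth factor. Pdgfra had signals of 4 and 787 in Sca1+, 34.4, 209.7 and 149 in Sca1-, 1327 unsorted and 1241 in the feeder. Pdgfrb had 42.4 and 1222.5 in Sca1+, 27.2, 322.5 and 325.5 in Sca1-, 635 unsorted and 655 in the feeder. Both receptors were at the floor on both unnumbered arrays. Cdh11, for the mesenchymal cadherin, had 41.4 and 1053 in Sca1+, 7.8, 186 and 251 in Sca1-, 1755 unsorted and 1624 in the feeder. Gas1, for a membrane-anchored hedgehog co-receptor, had 14.8 and 1478 in Sca1+, 7.2, 426 and 516 in Sca1-, 1698.5 unsorted and 3223 in the feeder. Cdh11 and Gas1 were at the floor on the unnumbered arrays as well. Thy1, for a surface glycoprotein shared by fibroblasts and lymphocytes, had 275 and 1266 in Sca1+, 565, 428 and 796 in Sca1-, 937.5 unsorted and 1635 in the feeder. Fap, for the fibroblast activation protease, had 182 and 198 in Sca1+, 294, 87 and 144 in Sca1-, 239.9 unsorted and 203 in the feeder, and its highest signal was on Sca1- replicate 1. Among the transcription factor genes, Prrx1, a mesenchymal homeobox gene, had 37.2 and 581 in Sca1+, 116.5, 276.5 and 125 in Sca1-, 377 unsorted and 776 in the feeder. Twist2, a bHLH factor gene, had 85.2 and 178 in Sca1+, 58.6, 66 and 84.2 in Sca1-, 316 unsorted and 169.9 in the feeder. Its relative Twist1 had 38 and 50.8 in Sca1+, 30.8, 21.2 and 8.2 in Sca1-, 33.2 unsorted and 68 in the feeder, at or near the floor throughout.

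The difference between numbered and unnumbered sorted arrays was estimated with fraction and title number in the same limma fit over 8591 genes, with 2 residual degrees of freedom. Of 32 member genes tested, 25 rose in the numbered arrays at an adjusted p under 0.05 (Benjamini-Hochberg) and 0 fell, where 11.8% of all genes tested rose and 7.46% fell. These were 8 of 9 collagens, 3 of 4 tested microfibril, fibulin and fibronectin genes, all 4 maturation genes, all 3 tested proteoglycans, 3 of 5 secreted proteins, 4 of 6 surface proteins and 0 of 1 transcription factor. Mfap4, Ogn, Twist1 and Twist2 were not tested because fewer than 2 sorted arrays exceeded 100. Of the 25, 12 were at or below 100 on both unnumbered arrays and so entered the test through the numbered arrays alone, while 13 exceeded 100 on at least 1 unnumbered array. Among the 13, Fbln2, Col6a3 and Serpinf1 exceeded 100 on 1 unnumbered array only and also needed a numbered array to enter. The count of 25 is therefore given as a description.

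By the probe sets used, the largest rise among the members was that of Col1a1, at 7.47 ± 0.28 (SE; adjusted p = 0.00097 by limma), with Sca1- replicate 1 at the floor. The other probe set of Col1a1 gave a rise of 3.69. Rises were 4.66 ± 0.33 for Col3a1 (adjusted p = 0.0019), 4.46 ± 0.32 for Fbln2 (adjusted p = 0.0019), 4.32 ± 0.30 for Lox (adjusted p = 0.0019) and 4.12 ± 0.47 for Dcn (adjusted p = 0.0051). The rises of Col1a2 (3.70 ± 0.51), Col6a3 (2.91 ± 0.70) and Pdgfra (2.39 ± 0.54, with both unnumbered arrays at the floor) passed too. Fn1 had the smallest of the called rises by the probe sets used, 1.12 ± 0.28 (adjusted p = 0.039 by limma), against 2.92 by its other probe set. Col1a1, Lox, Dcn and Pdgfra were below 100 on both unnumbered arrays and entered the test through the numbered arrays alone, so their p-values are given as a description. The same holds for Fbln2 and Col6a3, which exceeded 100 on 1 unnumbered array only and needed a numbered array to enter. Col12a1, Mfap5, Sfrp1, Islr, Thy1, Fap and Prrx1 did not pass, with -0.95 ± 0.39 for Col12a1 and -0.74 ± 0.48 for Fap. The count of calls depended on the treatment of low signals. With the floor raised 2-fold, 6 members passed and the rise of Col1a1 was 6.60. With no filter, 0 members and 31 genes passed by limma, with an adjusted p of 0.0503 for Col1a1. At an unadjusted p under 0.05, 28 members were higher and 1, Col12a1, was lower, where 21.6% and 15.1% of genes were. Counted over all 36 genes without a test, every numbered array lay above every unnumbered one for 26, where 18.6% of the 12393 genes did so, and below for 0, where 15.4% did. The call of Fn1 was lost without Sca1- replicate 1 (0.56), replicate 2 (1.05) or replicate 3 (1.06), and after median scaling (0.93). That of Pdgfra was lost without Sca1- replicate 1 (3.62) or either Sca1+ array (1.47 each), and with the mean of its probe sets (1.39). Col6a3 was 4.79 without Sca1- replicate 1 and 1.5 without either Sca1+ array, and lost its call without the intensity trend (adjusted p = 0.0542), with the raised floor (0.119 by limma) and with no filter (0.241). Fn1 lost its call under these 3 settings too.

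The median difference was above that of all genes within each fraction. Within Sca1+, replicate 2 minus replicate 1 had a median of 4.15 over the 36 genes, against 0.05 over all genes tested. Within Sca1-, the mean of replicates 2 and 3 minus replicate 1 had a median of 1.80, against 0.14. For Col6a2 the rise was 4.88 in Sca1+ and 1.81 in Sca1-, and for Col1a1 it was 8.02 and 7.06. Fn1 went the other way by the probe set used, with 0.56 and 1.54. Its other probe set rose more in Sca1+, with signals of 74.6 and 838.5 in Sca1+ and 116, 575.5 and 746.5 in Sca1-. A limma fit with an interaction of fraction and title number was chosen after seeing the data. It takes all its spread from Sca1- replicates 2 and 3, since every other arm is 1 array, and so holds no replicate check of the Sca1+ difference. By limma 0 members and 0 genes (0%) had an adjusted p under 0.05 in that fit, which has 1 residual degree of freedom. As a description, at an unadjusted p under 0.05 the difference was larger in Sca1+ for 24 members, where 13.2% of genes tested were, and smaller for 1, where 18.1% were. The smallest adjusted p of a member was 0.0989. Sca1- replicates 2 and 3, both numbered, differed from each other by a median of 0.20 in either direction over the 36 genes. Between an unnumbered and a numbered array this median was 1.97 and 1.96 in Sca1- (replicate 1 against 2 and 3) and 4.15 in Sca1+.

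**Figure D2:**
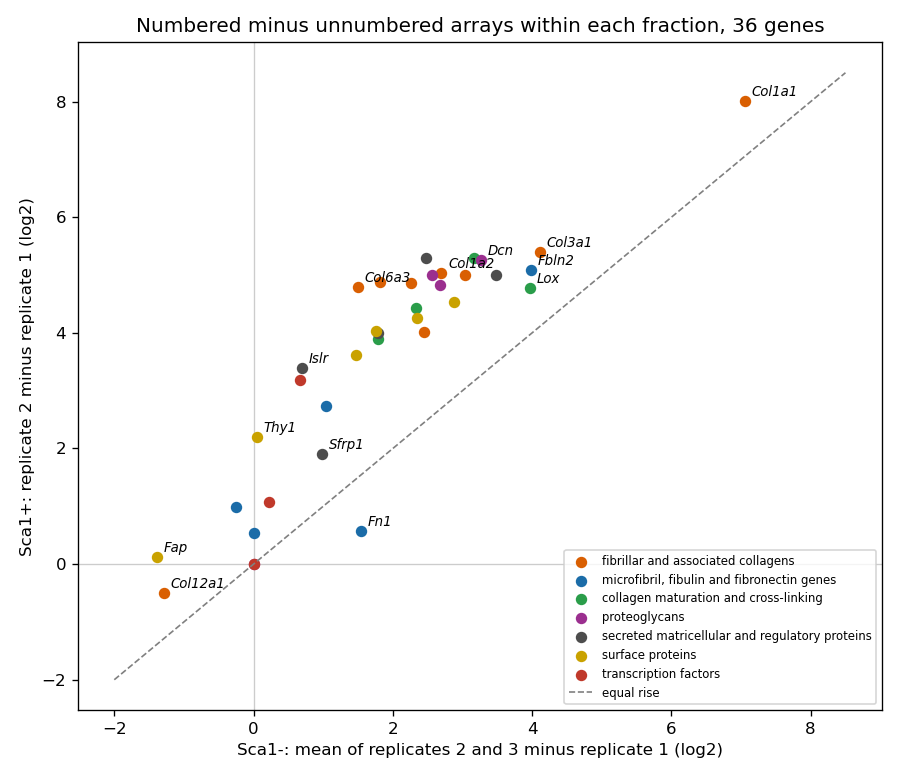
Log2 difference of numbered minus unnumbered arrays for the 36 genes, within Sca1- (horizontal, mean of 2 arrays minus 1 array) and within Sca1+ (vertical, 1 array minus 1 array); points are genes coloured by role and the dashed line marks equal rises. Most points lie above the line, with Col1a1 at 7.06 and 8.02, and Fn1, at 1.54 and 0.56, lies below it.

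The comparison of Sca1+ with Sca1- asks whether matrix transcripts mark either fraction. With fraction as the only term, limma called 0 of 32 members tested and 0 of 8591 genes (0% in each direction). At an unadjusted p under 0.05, 0 members were higher, where 1.11% of genes were, and 0 were lower, where 2.29% were. This fit counts the difference between numbered and unnumbered arrays as spread. It could therefore hardly call a member for which that difference was large, and these counts of 0 do not decide the question. The median difference over the 36 genes was 0.27, against 0.07 over all genes tested, but leaving out Sca1+ replicate 1 gave 2.48 and leaving out Sca1+ replicate 2 gave -1.60. Col1a1 differed by -0.39 ± 2.82 (SE), Fn1 by 1.24 ± 0.58 and Col12a1 by -1.02 ± 0.56. For Fn1 and Twist2, 2 of 36 genes, the lower Sca1+ signal exceeded the highest Sca1- signal, as for 9.18% of genes. For Col12a1 alone both Sca1+ signals were below all Sca1- signals, as for 6.17% of genes. With title number as a block, 0 members passed, while 0.989% of genes passed as lower and 0% as higher. At an unadjusted p under 0.05, 6 members were higher in that fit (Col1a1, Col3a1, Fbln2, Fn1, Loxl1 and Fstl1), where 7.67% of genes were, and Col12a1 was lower, where 7.82% were. In that fit Fn1 differed by 1.43 ± 0.28 (adjusted p = 0.107), and its other estimates among the alternatives ran from -0.56 with its dimmer probe set to 1.52 without Sca1+ replicate 1.

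Within the unnumbered pair 9 of 36 genes were higher in Sca1+, where 38.6% of all genes were. On both arrays of that pair 10 genes were at the floor, which sets their difference and the median over the 36 genes to 0.00. On the numbered arrays the median of Sca1+ minus Sca1- was 1.56, and Sca1+ replicate 2 lay above both Sca1- arrays for 33 of 36 genes, where 37% of all genes did. The exceptions were Col12a1, which was lower, and Ogn and Twist1, which were at the floor on all 3. Differences on the numbered arrays were largest for Islr (2.70, with Sca1- replicate 2 at the floor) and Col6a3 (2.65) and close to 1 for Fn1 (1.01). Among collagens, the type VI chains differed more (1.97, 1.97 and 2.65) than the type I chains (1.27 and 1.12), with 1 Sca1+ array and no test. With the numbered arrays alone in a limma fit, chosen after seeing the data, 4 genes passed and 0 of them were members.

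The unsorted array was set beside the sorted arrays to place the level of the matrix genes in progenitors with no Sca1 label. The unsorted signal exceeded all 5 sorted arrays for 14 of 36 genes, where 32.6% of all genes did so, a share close to the members' own. It was below all 5 for 0, where 11.8% of genes were. The 14 were Col6a3, Fbln1, Mfap5, Lox, Dcn, Lum, Ogn, Postn, Sfrp1, Islr, Pdgfra, Cdh11, Gas1 and Twist2. Lox was among them by a narrow margin, at 1852.5 against 1819.9 on Sca1+ replicate 2. Without Sca1+ replicate 2 the count was 32. It was 9 after median scaling and 23 after quantile normalisation. Leaving out an array can only raise such a count, and no share over all genes was taken for these settings. Pdgfra (1327 against at most 787), Islr (1333 against at most 670.5) and Postn (1874 against at most 1028) were examples well above the highest sorted array.

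Against the feeder level, Sca1+ replicate 2 and the unsorted array lay close and the other arrays far below. The median of array minus feeder over the 36 genes was -0.08 on Sca1+ replicate 2 and -0.12 on the unsorted array. It was -1.59 and -1.66 on Sca1- replicates 2 and 3, and -4.48 and -3.98 on the unnumbered Sca1+ and Sca1- arrays. Over all genes above 100 on either array of a pair these medians lay between -0.10 and 0.13. Of 34 members above 100 on either array, 31 were at least 2-fold below the feeder on Sca1+ replicate 1, where 21.8% of genes were, and 32 on Sca1- replicate 1, where 27.8% were. On Sca1- replicates 2 and 3, 30 members each were, where 13.5% and 13.1% of genes were. On Sca1+ replicate 2 only 5 were, where 6.45% of genes were, namely Col12a1, Mfap5, Lox, Ogn and Gas1. By the probe sets used, 0 members were at least 2-fold above the feeder on any sorted array, whereas the other probe set of Col1a1 read higher on each numbered array than on the feeder by more than that. Of all genes 14.3% and 5.71% were on Sca1+ replicates 1 and 2, and 22%, 9.26% and 8.73% on Sca1- replicates 1, 2 and 3. By the probe sets used, the type I and III chains lay nearest the feeder among the collagens on Sca1- replicates 2 and 3, at -0.55 to -0.96. The other probe set of Col3a1 lay far below the feeder, with 303 and 408 on these arrays against 2418. By those used, Cdh11 lay at -3.12 and -2.70, Pdgfra at -2.56 and -3.06 and Postn at -2.44 and -3.21. These levels cross separately deposited tables and have no test.

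**Figure D3:**
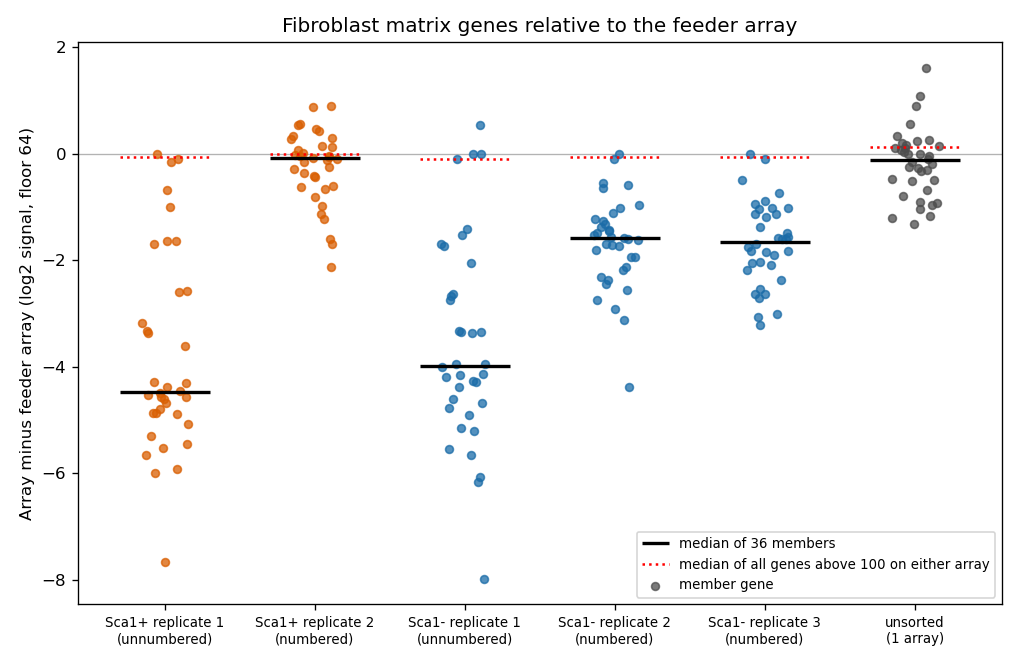
Log2 signal of each of the 36 genes on 6 arrays minus the feeder array (signals under 64 set to 64); points are genes, black bars their median and dotted red lines the median of all genes above 100 on either array. The black bars lie at -4.48, -0.08, -3.98, -1.59, -1.66 and -0.12 from left to right, while the red lines stay between -0.10 and 0.13.

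The feeder array exceeded all 5 sorted arrays for 22 of 36 genes, where 20.1% of all genes did, and was below all 5 for 0, where 13% were. Without Sca1+ replicate 2 the count was 34, and after median scaling it was 14. No share over all genes was taken for these settings, and leaving out an array can only raise such a count. Compared with the unsorted array alone, the feeder had a median difference of 0.12 over the 36 genes, against -0.13 over 9751 genes above 100 on either array. Of 34 members so measured, Serpinh1 (1.31), Lox (1.20), Fbln2 (1.16) and Prrx1 (1.04) exceeded the unsorted signal by 2-fold or more, where 4.08% of genes did. Sfrp1 (-1.61) and Fbln1 (-1.08) were at least 2-fold lower, where 15.9% were. The other 30 of 36 genes, including every collagen, lay within 2-fold. Median scaling moved the median of all genes from -0.13 to 0.28. The counts were then 9 higher and 1 lower, with Fbln1 at -0.72, and the direction of all 6 genes named here held under both other scalings.

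Other genes of matrix assembly moved in part with the members. Of 44 listed, 38 were measured and 33 tested, and 14 rose in the numbered arrays while 0 fell, where 11.8% and 7.46% of all genes did. For Sca1+ against Sca1-, limma called 0 of them, against 0% of all genes. Among collagen modifying and folding genes 5 of 10 tested rose: Bmp1 (3.35 ± 0.35), the procollagen protease gene, Plod2 (2.81 ± 0.26), Crtap (1.37 ± 0.29), P4ha1 (1.27 ± 0.32) and Plod1 (0.88 ± 0.22). Among other collagens 3 of 7 rose: Col15a1 (2.64 ± 0.32, with Sca1- replicate 1 at the floor), Col11a1 (2.38 ± 0.35) and Col16a1 (1.63 ± 0.29). Of 8 tested elastic fibre and cross-linking genes, Ltbp2 (2.89 ± 0.34), Mfap2 (2.71 ± 0.45) and Loxl3 (1.15 ± 0.28) rose. Of 8 tested proteoglycan and matricellular genes, Sparc (7.26 ± 0.38), Tnc (2.63 ± 0.58) and Thbs1 (1.34 ± 0.21) rose, with Sca1+ replicate 1 at the floor for Sparc and Tnc. Bmp1, Col11a1, Mfap2 and Sparc were below 100 on both unnumbered arrays and entered the test through the numbered arrays alone, and for the first 3 both unnumbered arrays were at the floor. Col15a1, Ltbp2 and Tnc exceeded 100 on 1 unnumbered array only and also needed a numbered array to enter. Sparc encodes a collagen-binding glycoprotein and had signals of 29.6 and 18520 in Sca1+, 77.6, 7905 and 6854 in Sca1-, 8558 unsorted and 14631 in the feeder.

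Different probe sets of a gene did not always give the same level. Of the 36 genes, 21 had several probe sets, with 29 besides those used. Differences of numbered minus unnumbered arrays are given here as plain differences of array means, without fraction in a fit. Of these 29, 18 exceeded 100 on at least 2 sorted arrays, and this difference was above 1 for 16 of the 18. Some of the 18, such as a second probe set each of Col5a2, Lox and Serpinh1, were below 100 on both unnumbered arrays. They met the cut through the numbered arrays alone, and no share over all probe sets was taken, so the count is given as a description. For Col1a1 the second probe set read 304 and 7967 in Sca1+, 579, 4871 and 3991 in Sca1-, 817 unsorted and 1183 in the feeder. The numbered arrays thus lay 2.18 above the feeder on the log2 scale by this probe set and 0.50 below it by the one used. The second probe set of Fn1 read 74.6 and 838.5 in Sca1+, 116, 575.5 and 746.5 in Sca1-, 648 unsorted and 1844 in the feeder. Its plain difference was 2.93, against 0.89 for the probe set used, which rose by 1.12 in the fit with fraction. For Serpinh1 the second probe set read 61.6 and 5503 in Sca1+, 50.8, 1669 and 1797 in Sca1-, 4284 unsorted and 6022 in the feeder, and its difference between feeder and unsorted arrays was 0.49 in place of 1.31. Gas1 had another probe set between 18.2 and 115, and Lox one that reached at most 53.4 on all 7 arrays. The cause of these differences was not tested.

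**Figure D4:**
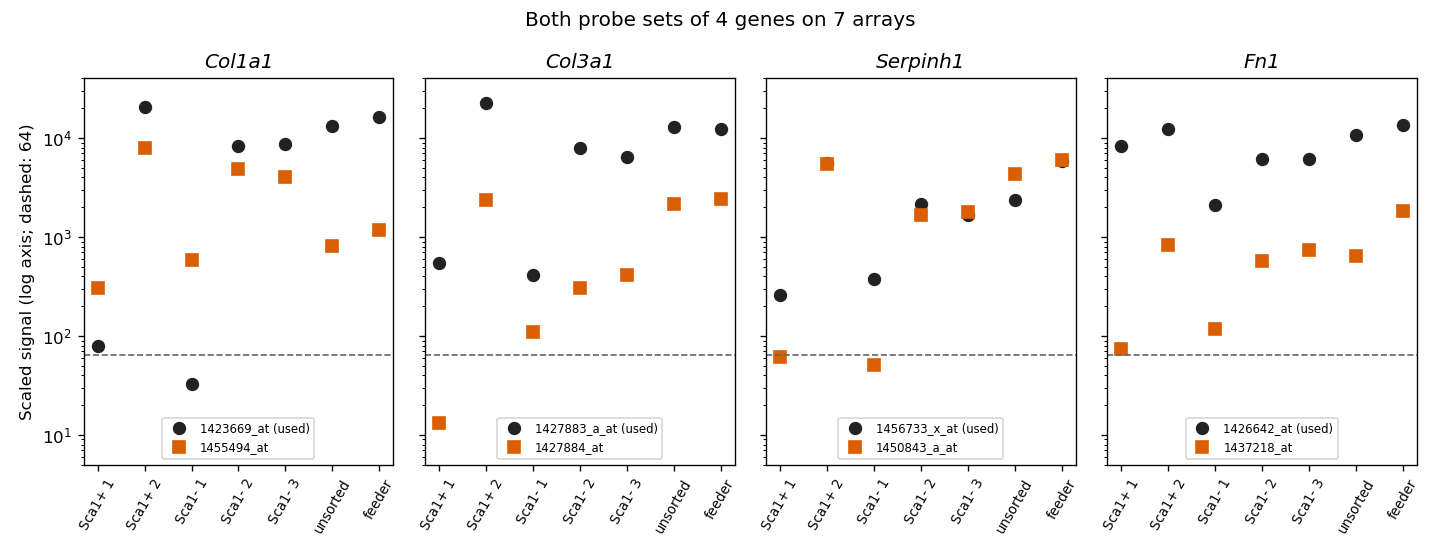
Scaled signal of both probe sets of Col1a1, Col3a1, Serpinh1 and Fn1 on each of the 7 arrays (log axis, 1 point per array, dashed line at 64); black circles are the probe set used and orange squares the other. For Col1a1 the orange squares on the unsorted and feeder arrays, 817 and 1183, lie far below those on the numbered arrays, whereas the black circles, 13192 and 16207, do not.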

How the data were processed

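The deposited values are linear signal intensities, and their trimmed mean lies near 250 in every column. GCOS is named in the submitters' processing notes for the 3 numbered arrays; for the other 4 the sources used here name no software. The 6 progenitor arrays and the feeder array are in separate tables, matched by the 22690 probe set names. The annotation pairs 20380 probe sets with 1 gene. Columns were multiplied to a 2% trimmed mean of 500, floored at 64 and converted to log2; the number of arrays limits the precision. For each gene the probe set of highest mean log2 signal over the 6 progenitor arrays was used. The 8591 genes above 100 on at least 2 sorted arrays were tested with limma 3.58.1 (R 4.3.3; lmFit, eBayes with trend, Benjamini-Hochberg at 0.05), with 1 mean per group over 6 arrays. Residual degrees of freedom were 3, or 2 with title number. No test was made with the feeder. Promoters came from RefSeq. All members were named, and other matrix genes where called. Members, lists and tests were chosen with earlier results of these data known. Fits were tested on simulated data. Figures used matplotlib 3.10.9.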

Additional observations from a re-analysis of the deposited data

Results flagged for a closer look

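Within the unnumbered pair and among the numbered arrays, Sca1+ minus Sca1- had opposite signs for 16 of 36 genes, lower in Sca1+ replicate 1 than in Sca1- replicate 1 and higher in Sca1+ replicate 2 than in Sca1- replicates 2 and 3. Of the genes whose estimates are given, these include Col1a2 (-1.22 in the unnumbered pair, and 1.02 and 1.21 on the numbered arrays), Col6a3 (-0.64, then 2.74 and 2.55) and Dcn (-0.08, then 1.78 and 2.04). Among the 16, Dcn, Fbln1 and Lum were below 100 on both unnumbered arrays. No share over all genes was taken for opposite signs, so the count of 16 is given as a description. The difference between the pairs has no replicate check, because in the interaction fit every arm but the numbered Sca1- arrays is 1 array. The Actb 3' to 5' ratios of 6.83 and 13.5 differ within the unnumbered pair, and their part was not tested.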

How the results depend on the processing

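Alternatives covered normalisation, floor, pseudocount, filter, probe sets, trend, blocks and left-out arrays. For Sca1+ against Sca1-, the members called stayed at 0 in every alternative run, and genes called were 0 except 1 with no filter, 4 with the numbered arrays only, 85 with title number as a block and 80 with the replicate block; without single arrays the count was 0. Replicate 2 carries its number in the titles of both fractions and replicate 1 is the array without one, and nothing says that these pair samples; deviations of same-numbered arrays correlated at 0.57 and 0.48 across genes. The replicate block changed the call of 0 members. The median over members ran from -1.60 to 2.48 without single arrays. Col1a1 turned from -0.39 to 0.86 with title number, 0.81 with the replicate block and 1.27 with the numbered arrays only, and ran from -4.40 to 3.62 without single arrays; Fn1 turned to -0.56 with the dimmest probe sets. For numbered against unnumbered arrays, 1653 genes and 25 members became 541 and 6 with the floor raised 2-fold, and 31 and 0 with no filter, which tests more genes near the floor. Without single arrays the genes ran from 642 (Sca1- replicate 1 left out; 811 for replicate 3) to 2939 (Sca1+ replicate 2; 2938 for replicate 1) and the members from 21 to 27. Members with the unsorted array above all sorted arrays were 14, with 9 after median scaling, 23 after quantile normalisation, and 14 to 32 without single arrays, the highest without Sca1+ replicate 2; with the feeder above, 22, with 14 after median scaling and 22 to 34 without single arrays. Members 2-fold higher on the feeder than unsorted were 4, with 1 for the mean of probe sets and 9 after median scaling; 2-fold lower 2, with 0 for the dimmest or mean probe sets and 1 after median scaling. For the member counts against the unsorted and feeder arrays, no share over all genes was taken in these alternatives. Where no reason is given, the cause was not tested. Signals near background limit the differences against the unnumbered arrays for the many members that lay near it there. Members such as Fn1 (8364 in Sca1+ and 2106 in Sca1- replicate 1) and Col1a2 (784 and 1822) lay well above it.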
